A study of Mus musculus with 160 samples.

Results

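The cytochrome P450 3A genes of the mouse and the nuclear receptor PXR, encoded by Nr1i2, were followed through 5 tissues, 4 inbred strains and 4 diets. The 9 genes, Cyp3a11, Cyp3a13, Cyp3a16, Cyp3a25, Cyp3a41a, Cyp3a41b, Cyp3a44, Cyp3a59 and Nr1i2, are 9 of the 56980 genes in the deposited tables and were taken by name. They were chosen by name with earlier results of these data known, among them the liver level of Cyp3a11 on the vegan against the American diet. That contrast is therefore given as a description, with no test. Male mice of the strains A/J, C57BL/6J, DBA/2J and SJL ate chow until 12 weeks of age. For the next 6 weeks they ate food made after human diets, either American, Mediterranean, vegetarian or vegan, and tissues were taken at 18 weeks of age. The diets had the same energy and macronutrient shares, drawn from different foods, and no group stayed on chow. Liver, quadriceps muscle and 3 fat depots (brown, subcutaneous and visceral) were sequenced as stranded libraries of polyadenylated RNA, with 2 mice for each strain and diet. Each tissue has 32 libraries, 8 per strain and 8 per diet, and mouse numbers are those of the labels.

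PXR is a sensor of foreign chemicals, bile acids and steroids in the liver and gut. It pairs with the retinoid X receptor (RXR) and binds paired copies of the short half-site AGGTCA or its variant AGTTCA in the control regions of its target genes. The CYP3A enzymes are classic targets. They sit in the endoplasmic reticulum, take electrons from the reductase Por, and oxidise drugs, bile acids and steroid hormones. Cyp3a11 is the main form of adult mouse liver. Cyp3a16 is known mainly from fetal and newborn liver, and Cyp3a41a, Cyp3a41b and Cyp3a44 are known for higher levels in females than in males.

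In GRCm39 coordinates the family spans chromosome 5. Cyp3a13 lies apart from the others, at chr5:137891193-137919882 on the minus strand. The main cluster runs through Cyp3a16 (chr5:145373119-145406533), Cyp3a41b (chr5:145495474-145521540), Cyp3a41a (chr5:145630859-145656946), Cyp3a44 (chr5:145710793-145742686), Cyp3a11 (chr5:145791236-145816867) and Cyp3a25 (chr5:145913516-145946432), all on the minus strand. Cyp3a59 follows on the plus strand at chr5:146016067-146050097. Nr1i2 is on the minus strand of another chromosome, at chr16:38068685-38115216. The canonical transcript of each of the 8 Cyp3a members has 13 exons, and that of Nr1i2 has 9. The tables also hold Cyp3a57 (chr5:145282089-145327736, plus strand) and the pseudogenes Cyp3a63-ps (chr5:145560902-145570803) and Cyp3a61-ps1 (chr5:138382074-138389856).

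How alike the genes are sets how well their reads can be told apart. The lines below give 60 bases of exon 12 on the coding strand, GRCm39, which encode the conserved loop around the cysteine that holds the haem iron. Capitals mark bases that differ from Cyp3a11, whose copy is at chr5:145795600-145795659.
Cyp3a11: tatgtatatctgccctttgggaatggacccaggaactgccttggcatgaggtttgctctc
Cyp3a16: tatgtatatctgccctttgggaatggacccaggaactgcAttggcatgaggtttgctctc
Cyp3a44: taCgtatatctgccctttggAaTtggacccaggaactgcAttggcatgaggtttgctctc
Cyp3a41a: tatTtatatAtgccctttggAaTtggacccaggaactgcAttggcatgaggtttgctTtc
Cyp3a41b: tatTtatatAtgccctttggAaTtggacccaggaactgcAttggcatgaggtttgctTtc
Cyp3a25: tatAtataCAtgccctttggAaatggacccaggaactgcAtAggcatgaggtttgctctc
Cyp3a59: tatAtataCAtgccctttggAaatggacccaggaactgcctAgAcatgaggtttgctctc
Cyp3a13: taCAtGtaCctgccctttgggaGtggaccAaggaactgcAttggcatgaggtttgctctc

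Cyp3a16 differs from Cyp3a11 at 1 of these bases and Cyp3a13 at 7. Cyp3a41a and Cyp3a41b are the same here. Over the whole coding sequence they agree at 1510 of 1512 bases (99.9%), and Cyp3a25 and Cyp3a59 at 97.5%. Cyp3a11 shares 95.2% of bases with Cyp3a41a, 95.0% with Cyp3a41b, 94.9% with Cyp3a44 and 92.8% with Cyp3a16, and 76.5% with Cyp3a13. Of all stretches of 100 bases in the canonical transcript, 90.8% in Cyp3a41a and 88.2% in Cyp3a41b also occur unchanged in another family transcript. The share is 6.07% in Cyp3a25, 6.10% in Cyp3a59, 5.36% in Cyp3a44, 0.299% in Cyp3a11, 0.123% in Cyp3a16 and 0 in Cyp3a13. The deposited counts divide a read among the places where it aligns. The split between Cyp3a41a and Cyp3a41b is therefore uncertain in every comparison, and the other close pairs less so.

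**Figure D1:**
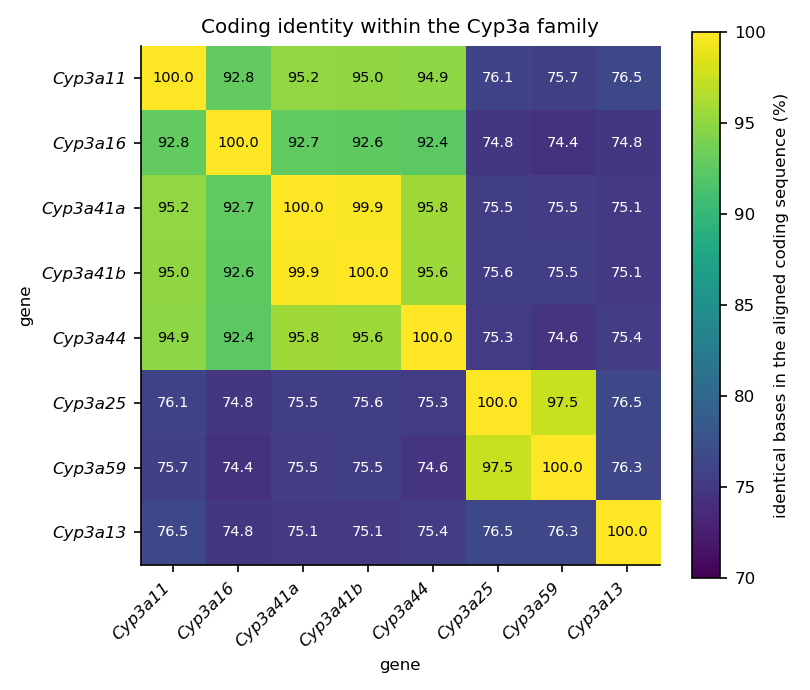
Identity of the coding sequences of the 8 Cyp3a genes, as the percentage of identical bases in each pairwise alignment, with genes on both axes. Cyp3a41a and Cyp3a41b stand at 99.9% and Cyp3a25 and Cyp3a59 at 97.5%, while Cyp3a13 stands at 76.5% with Cyp3a11 and with Cyp3a25.

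The promoters are shown because the family is known through its receptor and because its members moved apart between strains. The lines give the 250 bases before the start in the RefSeq table for GRCm38.p6, 5′ to 3′, for the most abundant liver member, the next most abundant and the close copy of the latter. Capitals mark AGGTCA or AGTTCA, read on either strand. The windows are chr5:145879855-145880104 for Cyp3a11, chr5:146009619-146009868 for Cyp3a25 (1 of its 2 listed starts) and chr5:146079008-146079257 for Cyp3a59.
Cyp3a11: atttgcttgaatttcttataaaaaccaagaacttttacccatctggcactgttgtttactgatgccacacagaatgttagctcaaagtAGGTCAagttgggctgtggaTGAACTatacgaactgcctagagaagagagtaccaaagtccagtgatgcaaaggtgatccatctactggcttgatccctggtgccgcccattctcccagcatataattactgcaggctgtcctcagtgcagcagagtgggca
Cyp3a25: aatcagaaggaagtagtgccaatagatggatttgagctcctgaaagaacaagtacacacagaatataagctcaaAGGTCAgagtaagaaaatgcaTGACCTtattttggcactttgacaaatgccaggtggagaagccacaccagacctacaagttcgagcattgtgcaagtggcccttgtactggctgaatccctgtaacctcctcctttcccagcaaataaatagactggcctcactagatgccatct
Cyp3a59: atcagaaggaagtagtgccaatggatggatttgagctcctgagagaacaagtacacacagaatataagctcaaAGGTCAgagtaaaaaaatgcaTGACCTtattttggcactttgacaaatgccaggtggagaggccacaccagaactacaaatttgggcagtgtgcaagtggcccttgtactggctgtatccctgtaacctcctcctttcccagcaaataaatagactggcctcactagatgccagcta

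Cyp3a11 has 1 AGGTCA and 1 AGTTCA, starting 162 and 142 bases before the start, with 14 bases between them. Cyp3a25 and Cyp3a59 each have 2 AGGTCA copies on opposite strands with 15 bases between them, and their promoters agree at 95.2% of bases. Cyp3a44 has 1 AGGTCA, Cyp3a41a and Cyp3a41b have 1 AGTTCA each, and the windows of Cyp3a13, Cyp3a16 and Nr1i2 hold neither. Of 32841 promoters of the same length, 14.03% hold AGGTCA, 11.84% hold AGTTCA and 24.16% hold either. A match is a match of letters and not a measured binding site.

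Liver libraries held 18.6 to 29.9 M counts, and all 160 held 18.0 to 54.8 M. Levels are given as the deposited TPM (a transcript's share of the library, corrected for gene length). The gene lengths behind it are not given, and levels and family shares of different genes rest on them. Over the livers Cyp3a11 totalled 2432020 counts and Cyp3a25 632748, on canonical transcripts of 2437 and 2009 bases. In TPM these genes stand closer together than their counts for those lengths would put them. In the 32 livers Cyp3a11 stood at 1391 ± 519 TPM (SD, n = 32) and Cyp3a25 at 888 ± 339 TPM. Cyp3a13 followed at 47.1 ± 39.0 TPM and Cyp3a59 at 33.1 ± 17.5 TPM, in an order that depended on strain. In C57BL/6J every Cyp3a13 value lay above every Cyp3a59 value, and in SJL the mean of Cyp3a59 (56.9 TPM) was above that of Cyp3a13 (24.1 TPM). Nr1i2, the receptor, was at 56.5 ± 15.6 TPM. As a share of the summed TPM of all Cyp3a rows, Cyp3a11 made up 58.0 ± 11.1%, Cyp3a25 37.9 ± 11.7%, Cyp3a13 2.33% and Cyp3a59 1.43%. The 3 genes known for higher female levels were low in these male livers, with liver counts of 0.667 to 198 for Cyp3a41a, 0 to 94.6 for Cyp3a41b and 4 to 520 for Cyp3a44. Cyp3a16 had 3.83 to 55.1 counts. Cyp3a57 was at 0 in 14 of 32 livers and at most 0.363 TPM. Cyp3a63-ps was at 0 TPM in 15, though its fractional counts, rounded before the TPM, were above 0 in 28. The counts of Cyp3a11 (31363.8 to 154365), Cyp3a25, Cyp3a13, Cyp3a59 and Nr1i2 were far above these. In bulk tissue, fewer cells of a type and less RNA per cell cannot be told apart.

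The liver strains were compared first, a comparison that the rule for choosing the genes does not name. The test was edgeR's quasi-likelihood F-test with strain and diet in the model, and p-values were adjusted by Benjamini-Hochberg over the 18636 genes tested. Of the 9 genes, all tested, 8 passed at 0.05, beside 53% of all genes, so that strain differences were common in liver at large. Cyp3a16 was the exception (adjusted p = 0.173). For strains other than C57BL/6J the aligner allowed more mismatches, so differences from C57BL/6J cannot be told apart from that setting. No strain difference can be told apart from distance to the C57BL/6J reference. The strains divided the family in 4 patterns: Cyp3a13 was high in C57BL/6J, Cyp3a25 in A/J and DBA/2J, Cyp3a44 in A/J, and Cyp3a59 in SJL.

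Cyp3a13, the member set apart on the chromosome and the one also known from gut, ran from 80.2 to 150 TPM with a median of 102 in C57BL/6J livers. In A/J it ran from 26.1 to 31.4 TPM (median 29.9), in DBA/2J from 18.1 to 37.5 TPM (median 24.1) and in SJL from 15.2 to 53.0 TPM (median 20.1). Every C57BL/6J liver was above every liver of the other strains. The mean of C57BL/6J was 110 ± 23.1 TPM (SD, n = 8), and the fitted level was 3.63-fold that of A/J (log2 difference, A/J minus C57BL/6J, -1.86, SE 0.162, adjusted p = 9.44e-11). It was 4.33-fold that of DBA/2J (adjusted p = 6.62e-12) and 4.78-fold that of SJL (adjusted p = 1.45e-12). Among A/J, DBA/2J and SJL no pair passed for Cyp3a13, with adjusted p between 0.061 and 0.536. No stretch of 100 bases of its transcript recurs in another family transcript.

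Cyp3a25, the second most abundant member, was split into 2 pairs of strains. It ran from 394 to 801 TPM (median 579) in C57BL/6J and from 420 to 860 TPM (median 611) in SJL. In A/J it ran from 883 to 1329 TPM (median 1074), and in DBA/2J from 898 to 1548 TPM (median 1285). The livers of the first pair of strains lay below all livers of the second. The fitted level was 1.94-fold higher in A/J than in C57BL/6J (log2 0.95, SE 0.105, adjusted p = 1.2e-08) and 2.26-fold higher in DBA/2J (log2 1.17, SE 0.106, adjusted p = 1.53e-10). SJL fell below A/J by 0.85 (adjusted p = 1.31e-07) and below DBA/2J by 1.07 (adjusted p = 1.16e-09) on the log2 scale. SJL and C57BL/6J differed by 0.10 (adjusted p = 0.525), and A/J and DBA/2J by 0.22 (adjusted p = 0.134). Its share of the summed family TPM accordingly stood at 46.3% in A/J and in DBA/2J, 31.9% in C57BL/6J and 27.0% in SJL.

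Cyp3a59, the close copy of Cyp3a25 on the opposite strand, was highest in SJL. Its lowest, median and highest values were 35.3, 57.0 and 79.2 TPM in SJL. They were 13.3, 21.9 and 38.9 TPM in C57BL/6J, 12.4, 23.8 and 33.7 TPM in A/J, and 11.8, 28.3 and 42.0 TPM in DBA/2J. SJL livers stood above all A/J livers and overlapped those of C57BL/6J and DBA/2J at the edge. Cyp3a59 was 2.38-fold higher in SJL than in C57BL/6J (log2 1.25, SE 0.207, adjusted p = 2.38e-05), 2.28-fold higher than in A/J (adjusted p = 4.9e-05) and 2.04-fold higher than in DBA/2J (adjusted p = 0.000279). So SJL held the higher level of one copy and a lower level of the other against A/J and DBA/2J.

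Cyp3a44, one of the forms known for higher female levels, was high in A/J. The A/J livers ran from 3.55 to 21.7 TPM with a median of 9.70. The highest livers elsewhere were at 1.83 TPM in C57BL/6J, 2.34 TPM in DBA/2J and 2.87 TPM in SJL, all below the lowest A/J liver. The fitted level in A/J was 10.4-fold that in C57BL/6J (log2 3.38, SE 0.373, adjusted p = 2.3e-08), 6.23-fold that in DBA/2J (adjusted p = 7.07e-07) and 8.24-fold that in SJL (adjusted p = 6.78e-08). Even so it made up 0.427% of the family in A/J.

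Cyp3a11 differed less between strains and every pair of strains overlapped. Its lowest, median and highest values were 657, 1095 and 1672 TPM in C57BL/6J and 812, 1208 and 1665 TPM in A/J. They were 727, 1625 and 2291 TPM in DBA/2J and 1062, 1686 and 2628 TPM in SJL. Only SJL against C57BL/6J passed, 1.45-fold higher in SJL (log2 0.54, SE 0.170, adjusted p = 0.018), and the test over all strains gave an adjusted p of 0.0301. Without the SJL liver of mouse 53 that contrast was 0.40 (adjusted p = 0.0666) and the test over strains gave 0.0757. Summed over all Cyp3a rows, which does not depend on how reads were split among them, the family was higher in DBA/2J than in C57BL/6J by 0.52 on the log2 scale (SE 0.146, adjusted p = 0.00756) and in SJL by 0.44 (SE 0.146, adjusted p = 0.0258).

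The near-identical pair Cyp3a41a and Cyp3a41b passed the test over strains (adjusted p = 0.000125 and 0.00488). That of Cyp3a41b was lost without 1 liver, DBA/2J mouse 42 (adjusted p = 0.0611), while that of Cyp3a41a passed with each liver left out (highest adjusted p = 0.01005). With the 16 strain and diet groups as the model, neither gene passed over strains (edgeR adjusted p = 0.178 for Cyp3a41a and 0.146 for Cyp3a41b). The single contrasts with DBA/2J rested on 1 liver in both genes. In DBA/2J, Cyp3a41a was at 8.95 TPM (198 counts) in the liver of mouse 45, on the vegan diet, and between 0.0802 and 0.720 TPM in the other 7. Cyp3a41b was at 4.27 TPM (94.6 counts) in the liver of mouse 42, on the vegetarian diet, in a strain with a median of 0.265 TPM. Without mouse 45, DBA/2J exceeded C57BL/6J in Cyp3a41a by 1.13 (adjusted p = 0.0979) in place of 3.50 on the log2 scale. Without mouse 42, the same contrast of Cyp3a41b was 0.97 (adjusted p = 0.168) in place of 2.11. Both rows summed, DBA/2J exceeded C57BL/6J by 2.80 (adjusted p = 0.00286) with all livers. The low pseudogene row Cyp3a61-ps1, near Cyp3a13, had its highest mean in SJL at 13.4 ± 12.4 TPM (SD, n = 8), against 0.145 TPM in C57BL/6J, 1.43 TPM in A/J and 1.02 TPM in DBA/2J (adjusted p over strains = 2.19e-08).

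Nr1i2, the receptor gene, was lowest in SJL. It ran there from 34.2 to 40.7 TPM with a median of 38.1. In C57BL/6J it ran from 47.6 to 87.1 TPM (median 59.9), in A/J from 52.5 to 91.1 TPM (median 70.3), and in DBA/2J from 46.4 to 66.6 TPM (median 55.4). No SJL liver overlapped a liver of another strain. On the log2 scale SJL fell below C57BL/6J by 0.72 (SE 0.107, adjusted p = 3.11e-06), below A/J by 0.95 (adjusted p = 2.05e-08) and below DBA/2J by 0.60 (adjusted p = 5.28e-05). DBA/2J was below A/J by a smaller step (log2 -0.36, adjusted p = 0.0132), which was -0.28 (adjusted p = 0.0515) without A/J mouse 32. The highest mean of Cyp3a11 was also in SJL, at 1698 ± 592 TPM. That gene passed against C57BL/6J alone, with edgeR adjusted p of 0.519 against DBA/2J and 0.0664 against A/J.

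**Figure D2:**
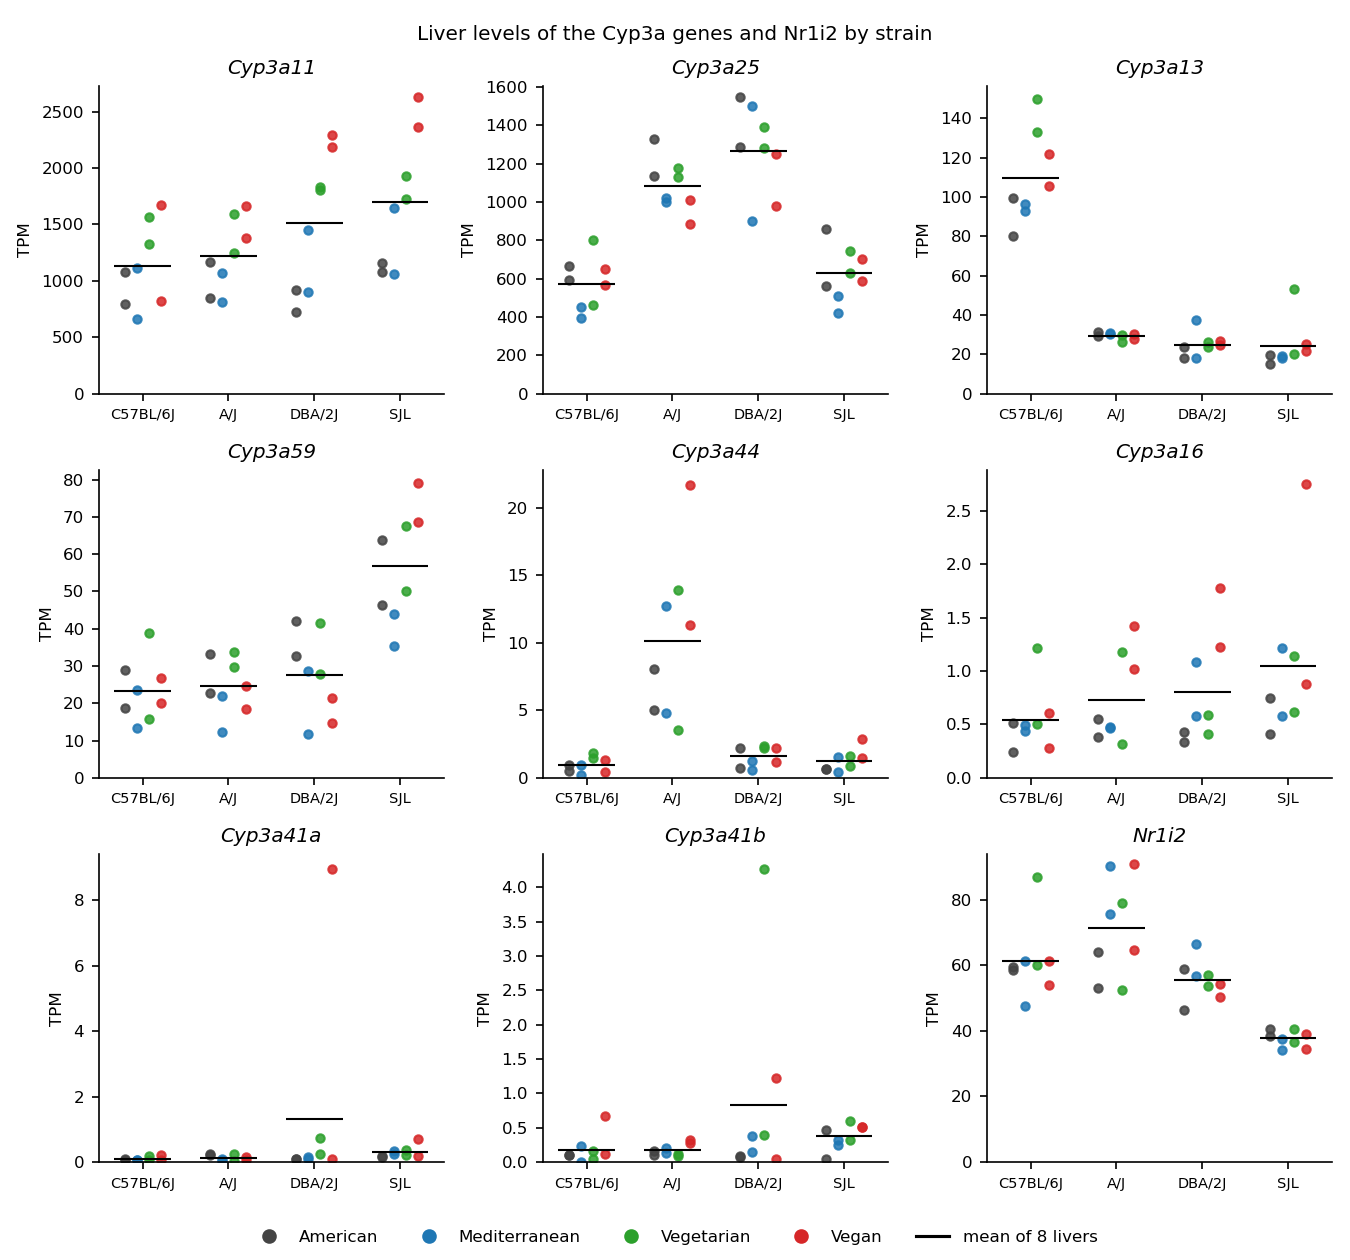
Liver levels of the Cyp3a genes and Nr1i2 in TPM by strain, each point 1 liver coloured by diet and each line the mean of 8 livers. Cyp3a13 stands apart in C57BL/6J (80.2 to 150 TPM), Cyp3a44 in A/J (3.55 to 21.7 TPM) and Nr1i2 in SJL (34.2 to 40.7 TPM).

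Counted by contrast, in A/J against C57BL/6J 2 of the 9 genes were higher and 1 lower by the test (28.9% of all genes passed). In DBA/2J against C57BL/6J 3 were higher and 1 lower (26.1%), and in SJL against C57BL/6J 2 higher and 2 lower (25.4%). In DBA/2J against A/J 2 were higher and 2 lower (22.3%), in SJL against A/J 1 higher and 3 lower (28%), and in SJL against DBA/2J 1 higher and 3 lower (29.5%). Counts of 3 or 4 among 9 stand near or somewhat above these shares of all genes. Markers of other cells also moved with strain. The summed TPM of 5 hepatocyte genes was 102867 in C57BL/6J, 158127 in A/J, 117921 in DBA/2J and 133796 in SJL. For 5 Kupffer cell and macrophage genes it was 423, 348, 358 and 619 TPM in the same order, with SJL livers from 440 to 955 TPM. Their part in the strain differences was not tested.

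The relation between receptor and main target was then followed over the livers. Across all 32, log2 CPM of Cyp3a11 and Nr1i2 gave a Pearson r of -0.18 (permutation p = 0.322, adjusted p = 0.7325) and a Spearman rho of -0.135 (permutation p = 0.46). Without the 2 livers farthest from the median of Nr1i2, r was -0.0226 (permutation p = 0.907). Within C57BL/6J r was 0.718 (exact permutation p = 0.0258, adjusted p = 0.155 over 6 relations), within A/J 0.205, within DBA/2J 0.264 and within SJL -0.216, with 8 livers each. No relation passed after adjustment. Set against its partner of the same strain and diet, the liver with more Nr1i2 had more Cyp3a11 in 11 of 16 pairs. Over these pairs the deviations gave r = 0.529 (permutation p = 0.0294 over the 16 pairs, not adjusted), of opposite sign to the value across all livers.

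Diet was described next, beginning with Cyp3a11. By diet its liver level was 971 ± 171 TPM on American, 1089 ± 326 TPM on Mediterranean, 1627 ± 243 TPM on vegetarian and 1876 ± 600 TPM on vegan food (SD, n = 8 each). American livers ran from 727 to 1168 TPM and vegetarian livers from 1249 to 1928 TPM, so these 2 diets did not overlap in a comparison of all their livers. All other pairs of diets overlapped, and the share of all genes without such overlap was not computed. Mediterranean livers ran from 657 to 1649 TPM and vegan livers from 819 to 2628 TPM.

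In DBA/2J the American livers were at 727 and 920 TPM, the Mediterranean at 903 and 1449, the vegetarian at 1801 and 1834, and the vegan at 2188 and 2291 TPM. In SJL they were at 1156 and 1076, 1649 and 1062, 1724 and 1928, and 2364 and 2628 TPM in the same order. Both strains had their highest livers on the vegan diet. In A/J the values were 1168 and 846, 1065 and 812, 1249 and 1591, and 1382 and 1665 TPM. In C57BL/6J they were 794 and 1077, 657 and 1113, 1326 and 1565, and 1672 and 819 TPM, where the second vegan liver lay among the American ones. The vegetarian mean was 1.55-fold the American in C57BL/6J, 1.41-fold in A/J, 2.21-fold in DBA/2J and 1.64-fold in SJL, with no overlap in 4 of 4 strains. The vegan mean was 1.33-fold the American in C57BL/6J, 1.51-fold in A/J, 2.72-fold in DBA/2J and 2.24-fold in SJL, with no overlap in 3 of the 4. Each of these comparisons set 2 livers against 2, where a lack of overlap is common by chance. How many of all genes separate so was not computed.

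**Figure D3:**
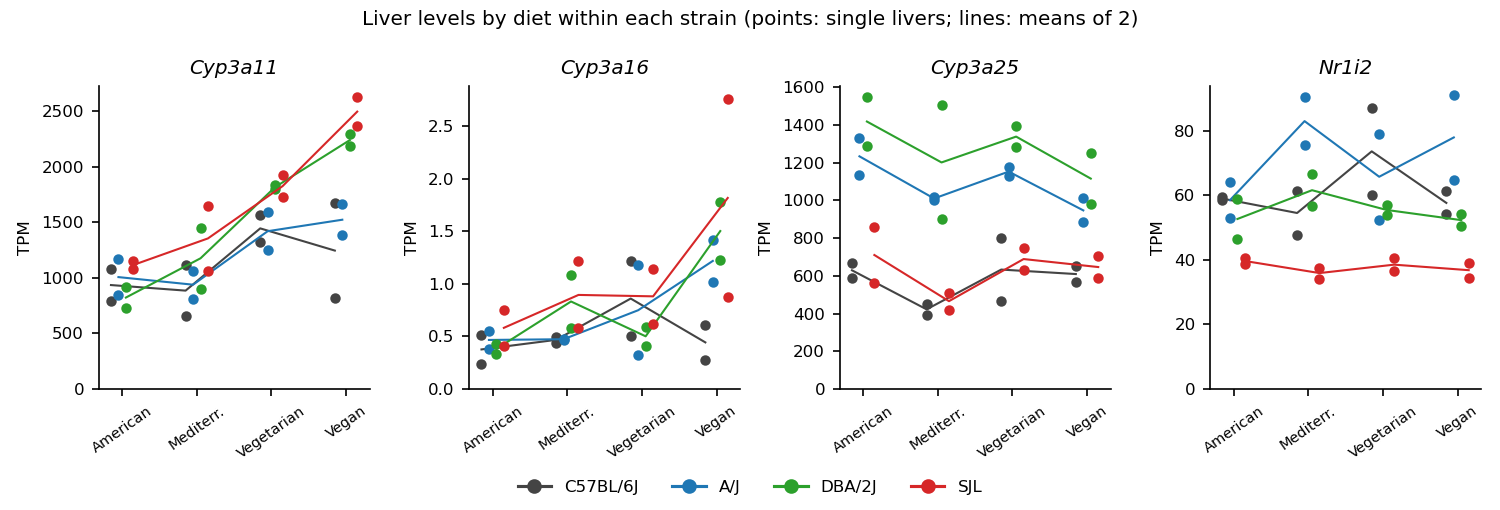
Liver TPM by diet within each strain, with points for single livers and lines joining the means of 2 livers, 1 colour per strain. For Cyp3a11 all vegetarian livers (1249 to 1928 TPM) lie above all American livers (727 to 1168 TPM), and the Nr1i2 lines show no such order.

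In the fit over all livers Cyp3a11 was 1.93-fold higher on the vegan than on the American diet (log2 0.95, SE 0.172). Vegetarian against American gave a log2 difference of 0.66 (SE 0.170, unadjusted p = 0.000488, edgeR adjusted p = 0.326), and vegetarian against Mediterranean 0.40 (SE 0.170, adjusted p = 0.262). Mediterranean against American gave 0.26 (SE 0.170, adjusted p = 0.439). None of these 3 tested differences passed over all genes, where diet calls were rare. The Mediterranean and vegetarian contrasts with American share the American livers with each other and with the vegan contrast that was known at the choice of genes. Kupffer cell and macrophage genes summed to 374 TPM on American, 519 on Mediterranean, 419 on vegetarian and 436 on vegan food, and the hepatocyte genes to 120081, 134185, 125472 and 132973 TPM. Their part in the diet differences was not tested.

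The other members gave other orders of the diets. Cyp3a25 was at 997 ± 378 TPM on American, 774 ± 397 on Mediterranean, 953 ± 336 on vegetarian and 829 ± 242 on vegan food. Its mean was lower on the Mediterranean than on the American diet in 4 of 4 strains, without overlap in 3, and the log2 difference was -0.32 (SE 0.104, adjusted p = 0.15). Cyp3a59 was likewise at 36.1, 23.9, 38.1 and 34.2 TPM, with a Mediterranean minus American difference of -0.50 (SE 0.206, adjusted p = 0.247). Cyp3a13 was at 39.7, 42.9, 57.7 and 48.0 TPM. In C57BL/6J, where it is high, its livers were at 99.5 and 80.2 TPM on American, 92.9 and 96.4 on Mediterranean, 133 and 150 on vegetarian and 122 and 105 on vegan food.

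The low members were described by their means alone. Cyp3a16 was at 0.452, 0.667, 0.748 and 1.25 TPM and Cyp3a44 at 2.37, 2.82, 3.48 and 5.30 TPM on American, Mediterranean, vegetarian and vegan food. Nr1i2 was at 52.5, 58.8, 58.4 and 56.2 TPM, a vegetarian minus American difference of 0.06 on the log2 scale. The Cyp3a44 means pool strains of unlike level and mostly reflect A/J, at 6.58 TPM on American and 16.5 TPM on vegan food. The same values were 0.727 and 0.859 in C57BL/6J, 1.48 and 1.68 in DBA/2J, and 0.670 and 2.16 TPM in SJL. Of the 9 genes, 0 passed for Mediterranean against American (0.145% of all genes, 27, passed), where 7 were higher and 2 lower with a median log2 difference of 0.22. For vegetarian against American 0 passed (0% of all genes, with 923 at an unadjusted p under 0.05), where 8 were higher and 1 lower with a median of 0.63. For vegetarian against Mediterranean 0 passed (0.00537% of all genes, 1 gene), where 7 were higher and 2 lower with a median of 0.40. The vegan against American contrast was known at the choice of genes and is described only. In it 7 were higher and 2 lower with a median of 0.95 (0.113% of all genes, 21, passed). The medians of 0.95 and 0.40 are the values of Cyp3a11 itself. Over all genes the medians lay between -0.00274 and 0.00876 in these 4 contrasts. In the test of strain by diet interaction 0 of 9 passed (0% of all genes, with 1508 at an unadjusted p under 0.05), and the lowest unadjusted p of a member was 0.0523, for Cyp3a41a.

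Other genes of the pathway were taken from fixed lists. Of 40 genes reported as targets of PXR or of its sister receptor CAR, 39 were tested in liver and 34 (87.2%) differed between strains, beside 53% of all genes. They went both ways. By the test, 14 were higher and 8 lower in DBA/2J than in C57BL/6J (56.4% called beside 26.1% of all genes, median log2 0.069), and 5 were higher and 15 lower in SJL than in C57BL/6J (51.3% beside 25.4%, median -0.295). Against A/J, SJL had 5 higher and 13 lower (46.2% beside 28%, median -0.263), and against DBA/2J 4 higher and 17 lower (53.8% beside 29.5%, median -0.305). Medians of all genes lay between -0.00139 and 0.012 in these contrasts. Cyp2c55, a P450 of the CYP2C family, was at 11.6 TPM in DBA/2J, 3.07 in C57BL/6J, 0.735 in SJL and 0.391 in A/J (adjusted p = 2.96e-18). Sult1a1, which sulphates phenols, was at 566 TPM in DBA/2J against 181 to 265 TPM elsewhere. Cyp2c29 was at 1922 TPM in DBA/2J against 351 to 798 TPM elsewhere. Cyp2b10, the classic CAR target, was lower in SJL than in DBA/2J by a log2 difference of -4.38 (adjusted p = 9.39e-08). SJL thus had more of these genes lower than higher against each other strain. The list holds targets of both PXR and CAR, and the part of either receptor was not tested.

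Of 24 partners and regulators of the receptor that were tested, 15 (62.5%) differed between strains, not far from the 53% of all genes. Rxra, which encodes the partner of PXR, was not among them (adjusted p = 0.148), nor was Hnf4a, a master regulator of hepatocyte genes (adjusted p = 0.0698). Nr1i3, which encodes CAR, was lower in SJL than in A/J (log2 -0.79, adjusted p = 0.00714) and than in DBA/2J (log2 -0.61, adjusted p = 0.0348). Ppargc1a, a coactivator of fasting metabolism, was highest in A/J at 3.36 TPM against 1.61 to 2.53 TPM elsewhere. Of 15 genes that supply P450 enzymes with electrons and haem, 10 (66.7%) differed between strains, beside the same 53%. The reductase Por was not called (adjusted p = 0.259). Alad, an enzyme of haem synthesis, was at 171 TPM in C57BL/6J and at 477, 539 and 504 TPM in A/J, DBA/2J and SJL (adjusted p = 5.93e-13).

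Because 3 members are known for higher female levels, liver genes known to differ by sex were also listed, though all mice were male. Of 18 listed genes known to be higher in females, 14 passed the filter and were tested. A gene high in 1 strain alone can pass that filter, so the counts describe the tested genes only. Of the 14, 9 were higher and 2 lower in A/J than in C57BL/6J (median log2 1.74, 28.9% of all genes called), and 0 higher and 10 lower in SJL than in A/J (median -3.62, 28% of all genes). These 2 contrasts share the A/J livers. Against C57BL/6J, DBA/2J had 6 higher and 4 lower (26.1% of all genes) and SJL 2 higher and 4 lower (25.4%). Of 18 tested genes known to be higher in males, 0 were higher and 12 lower in A/J than in C57BL/6J (median -0.608), and 13 higher and 0 lower in SJL than in A/J (median 0.674). Against C57BL/6J, DBA/2J had 3 higher and 4 lower and SJL 4 higher and 5 lower. Cyp2a4, a steroid hydroxylase, was at 158 TPM in A/J against 0.372 to 1.28 TPM elsewhere, and Cyp2b9 at 232 TPM against 0.559 to 11.3 TPM. Fmo2, of the same female list, was instead highest in DBA/2J, at 13.3 TPM, and stood at 3.12 TPM in A/J. Mup20, a male urinary pheromone protein, was at 143 TPM in A/J and 8709 TPM in C57BL/6J. Of 11 genes of growth hormone signalling, which sets these patterns in the liver, 6 (54.5%) differed between strains, a share near the 53% of all genes. Stat5b, a transducer of the hormone, was at 35.9 TPM in A/J and 23.0 to 26.0 TPM elsewhere (adjusted p = 3.21e-05). Stat5a was also highest in A/J, at 8.55 TPM against 4.23 to 4.66 TPM. Other genes of that list were lowest in A/J. Onecut1 was at 5.50 TPM there against 7.55 to 33.8 TPM elsewhere (adjusted p = 0.00061), and Cish at 1.59 TPM against 4.46 to 14.1 TPM (adjusted p = 0.00781).

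In the 6 diet contrasts and the interaction test, 0 genes of these 6 lists were called. In vegetarian against Mediterranean livers 33 of the 39 PXR and CAR genes were lower and 6 higher (median log2 -0.273), and 14 of the 15 electron and haem genes were lower (median -0.255), beside a median of 0.00876 over all genes. Cyp3a11 went the other way in that contrast, at 0.40. Among them Ephx1, a microsomal epoxide hydrolase, had a log2 difference of -0.55 (adjusted p = 0.123) and Ugt1a1, which conjugates bilirubin, -0.41 (adjusted p = 0.105). Por and Alas1 are in both lists. Against American livers, 29 of the 39 were higher on Mediterranean food (median 0.149). On vegetarian food 15 were higher and 24 lower than on American food (median -0.0979). Against Mediterranean livers, 29 of the 39 were lower on vegan food (median -0.138). Of the 15 electron and haem genes, 12 were higher on Mediterranean (median 0.167) and 10 on vegetarian food (median 0.0401) than on American food.

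Over 10150 liver genes the pattern most like that of Cyp3a11 across the 32 livers was that of Cyp51, the P450 of cholesterol synthesis (Pearson r of log2 CPM 0.755, and 0.568 among deviations from the strain and diet means). Cystm1, Rrp15, Fam50a and Ogfod2 followed at 0.647 to 0.624. The lowest were Wipf3 (-0.569), Pcx, Pcca, Dab2ip and Def8 (-0.545). For Nr1i2 the highest were Rpl34 (0.872), Pex6, Wbp1l, Gm16573 and Zwint (0.838). The lowest were Cyp2f2 (-0.844), Gm15883, Akr1b1, Ceacam2 and Klhdc7a (-0.834). These livers share strain and diet, and the values describe them only.

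Outside liver the family was read in every tissue, at levels that followed albumin transcript. The lowest, median and highest TPM of Cyp3a11 were 0.0160, 1.19 and 315 in brown fat, 0.0613, 2.81 and 1158 in subcutaneous fat, 0.178, 37.7 and 1104 in muscle, and 0.0624, 60.2 and 1400 in visceral fat. Alb, which hepatocytes make, stood above 10% of its liver mean in 8 muscle, 4 brown fat, 4 subcutaneous and 10 visceral libraries, and above 1% in 22, 8, 11 and 23. Over the 32 libraries of a tissue, log Alb and log Cyp3a11 gave a Pearson r of 0.976 in muscle, 0.986 in brown fat, 0.986 in subcutaneous fat and 0.992 in visceral fat. The value was 0.916 to 0.965 for Nr1i2 and 0.876 to 0.912 for Cyp3a13. These are descriptions over libraries that share tissue and depth, and where the transcripts came from was not tested.

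**Figure D4:**
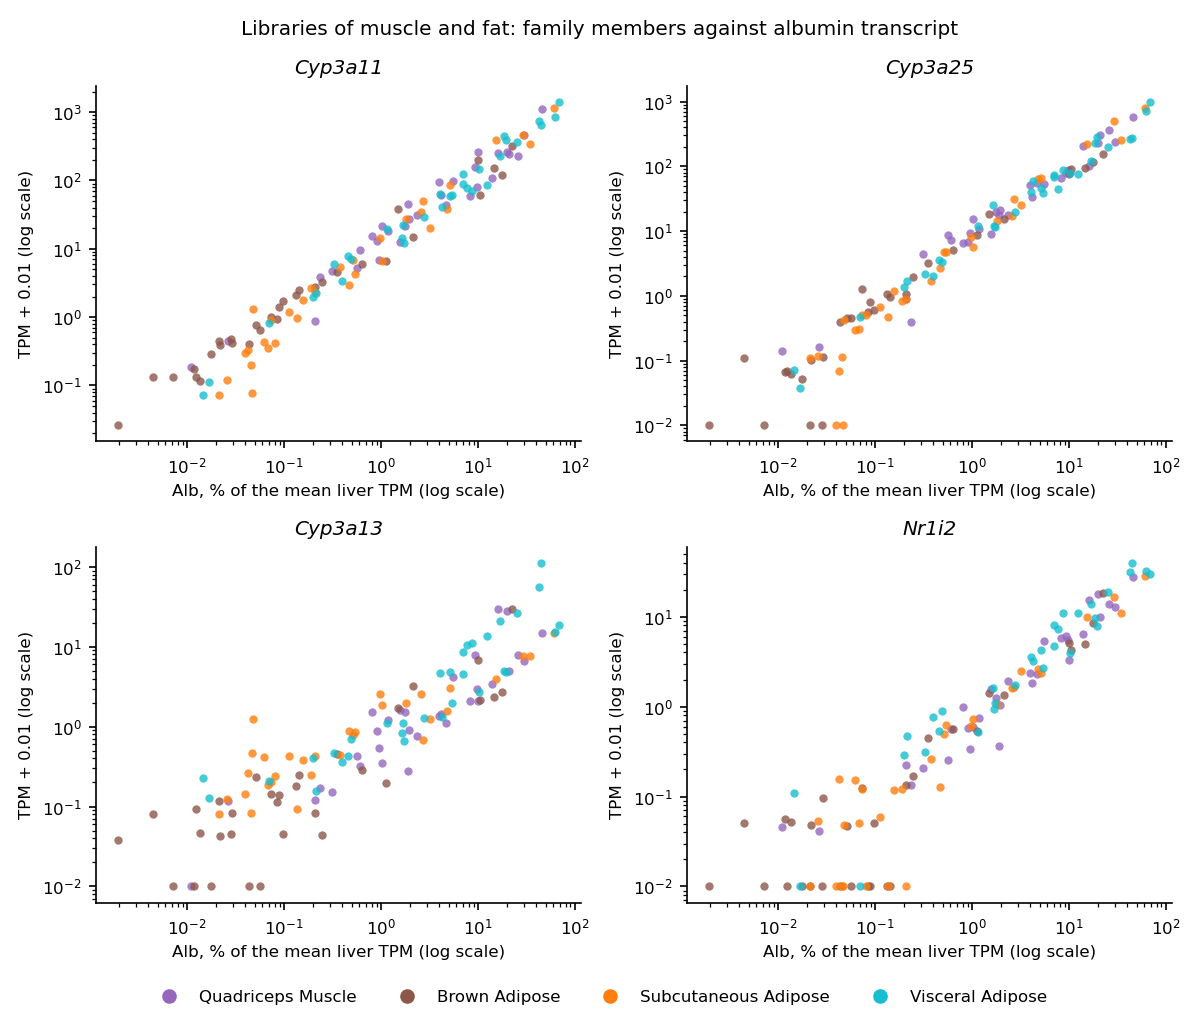
TPM plus 0.01 of family members against Alb as a percentage of the mean liver TPM, both on log scales, in the 32 libraries each of muscle, brown, subcutaneous and visceral fat, 1 colour per tissue. Cyp3a11 follows Alb over the whole range (r 0.976 to 0.992 within tissues) and Cyp3a13 less closely (r 0.876 to 0.912).

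In libraries with at most 1% of liver Alb, Cyp3a13 had a median of 0.369 TPM in subcutaneous fat (21 libraries), 0.350 TPM in visceral fat (9), 0.239 TPM in muscle (10) and 0.0710 TPM in brown fat (24). Nr1i2 had medians of 0.0485, 0.301, 0.230 and 0.0185 TPM in the same order. Cyp3a11 still had medians of 0.952, 2.23, 4.98 and 0.556 TPM there. Both genes were thus low in these tissues once Alb was low.

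Across all libraries visceral fat and muscle held more Cyp3a13 and Nr1i2 than brown and subcutaneous fat. Of 12 two-sided permutation tests of log2 CPM (32 libraries a tissue, adjusted over the 12), 8 passed. Cyp3a13 was higher in visceral than in brown fat by 2.82 (adjusted p = 0.00024) and than in subcutaneous fat by 1.65 (adjusted p = 0.00643), and lower in brown fat than in muscle by a log2 difference of -2.14 (adjusted p = 0.00066). It was higher in subcutaneous than in brown fat by 1.17 (adjusted p = 0.0321), a call lost with a pseudocount of 1 CPM (0.376, adjusted p = 0.236) and in 6 of 35 tests with a mouse left out. The same call passed without libraries over 10% of liver Alb (1.26, adjusted p = 0.00387) and without those over 1% (1.27, adjusted p = 0.0006). Nr1i2 was higher in visceral than in brown fat by 2.91 (adjusted p = 0.00024) and than in subcutaneous fat by 2.33 (adjusted p = 0.00122). Against muscle it was lower in brown fat (log2 -2.49, adjusted p = 0.00024) and in subcutaneous fat (log2 -1.91, adjusted p = 0.0038). Visceral fat and muscle did not differ beyond their spread in either gene, with differences of 0.68 and 0.42.

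Most mice gave all tissues, and paired within mice by a permutation of signs, Cyp3a13 was higher in visceral than in brown fat in 29 of 30 mice and Nr1i2 in 27 of 30. The pairing added 1 call, Cyp3a13 lower in subcutaneous fat than in muscle (log2 -1.03, adjusted p = 0.0449, against -0.97 and 0.0654 without it). Without libraries over 1% of liver Alb, 6 of the 12 tests passed. Visceral fat exceeded brown fat by 1.05 in Cyp3a13 (adjusted p = 0.00552) and 1.15 in Nr1i2 (adjusted p = 0.00727). Brown fat was below muscle in Nr1i2 (log2 -1.32, adjusted p = 0.00282) and in Cyp3a13 (log2 -1.19, adjusted p = 0.00699). Subcutaneous fat exceeded brown fat in Cyp3a13 by 1.27 (adjusted p = 0.0006) and was below muscle in Nr1i2 (log2 -1.04, adjusted p = 0.0159). In these libraries Cyp3a11 still had medians of 2.23 TPM in visceral and 0.556 TPM in brown fat. Nr1i2 was at 0 in 12 of 24 brown and 2 of 9 visceral libraries. Visceral minus subcutaneous fat was then 0.865 in Nr1i2 (adjusted p = 0.0644) and -0.22 in Cyp3a13, of opposite sign to the value over all libraries, as was visceral fat minus muscle in Cyp3a13 (-0.14).

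Within the other tissues, strain was called for 2 of the members tested, Cyp3a59 (adjusted p = 0.00524) and Cyp3a44 (adjusted p = 0.0165) in subcutaneous fat. None of 5 tested in brown fat, 6 in muscle and 6 in visceral fat passed. The background was 65.6% of all genes in subcutaneous fat, 56.8% in brown fat, 45.5% in muscle and 40.1% in visceral fat. With Alb as a covariate, or without libraries over 1% of liver Alb where that could be fitted, 0 passed. Diet gave 0 calls in each of the 4 tissues by edgeR (0.421% of all genes in brown fat, 0% in the others), with 1 member under an unadjusted p of 0.05, in subcutaneous fat, and 0 in the other tissues.

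The strain pattern of Cyp3a13 in liver gives a further reading of those libraries. For each 1000 TPM of Alb, C57BL/6J livers held 1.22 to 2.77 TPM of Cyp3a13, A/J livers 0.211 to 0.314, DBA/2J livers 0.259 to 0.460 and SJL livers 0.182 to 0.878. Of the 26 muscle and fat libraries over 10% of liver Alb, 14 lay within the liver range of their own strain, 7 below it and 5 above it. The A/J, DBA/2J and SJL ranges overlap, so a ratio within 1 of them does not mark that strain. In C57BL/6J 5 of 8 lay below, namely muscle of mice 8 (0.358) and 9 (0.291) and visceral fat of mice 2 (0.316), 13 (0.333) and 16 (0.296). The other 3, muscle of mouse 13 (2.22) and visceral fat of mice 7 (1.49) and 8 (1.33), lay within.

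Of the libraries above their own strain's range, 4 fell inside the C57BL/6J liver range. They were A/J muscle of mouse 17 (1.69) and visceral fat of mouse 24 (1.25), and SJL brown fat (1.61) and visceral fat (1.57) of mouse 49. The fifth, SJL visceral fat of mouse 57 at 3.0, lay in no strain's range. In DBA/2J, muscle of mouse 38 (0.247) and brown fat of mouse 42 (0.183) lay below their own range. That brown fat library also held 12.6 TPM of Cyp3a44 for each 1000 of Cyp3a11, within the A/J liver range of 2.23 to 13.0 and outside the DBA/2J range of 0.516 to 2.40, although its Cyp3a13 ratio lay outside the A/J range. C57BL/6J visceral fat of mouse 2 (7.17) and muscle of mouse 9 (3.06) also lay in that A/J range, above their own range of 0.331 to 1.38. Over the 26 libraries the Cyp3a44 ratio was below the own strain's liver range in 9, within it in 10 and above it in 7. Cyp3a25 for each 1000 of Cyp3a11 was below in 3, within in 17 and above in 6. Cyp3a59 for each 1000 of Cyp3a25 was below in 7, within in 12 and above in 7. In that ratio the 5 SJL libraries (36.2 to 67.9) all lay below the SJL liver range of 74.1 to 116. Where these liver transcripts came from was not tested, and Cyp3a13 read in the tissue itself would add to the ratio.

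**Figure D5:**
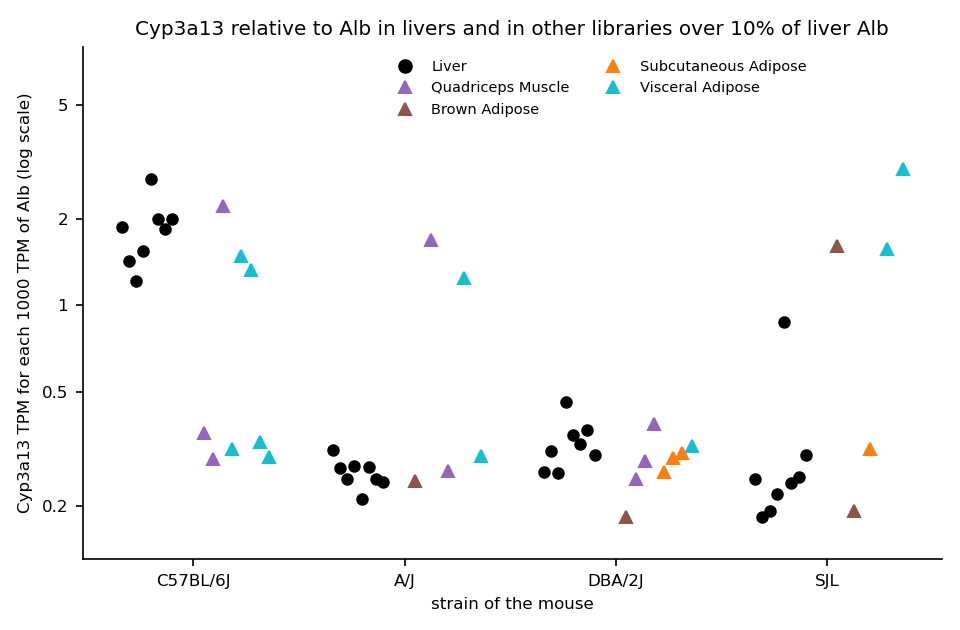
Cyp3a13 TPM for each 1000 TPM of Alb, on a log scale, by strain of the mouse, with black points for the 32 livers and coloured triangles for the 26 muscle and fat libraries over 10% of liver Alb. In C57BL/6J, 5 of 8 triangles lie below the livers of that strain (1.22 to 2.77), and in A/J and SJL 5 lie above theirs.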

How the data were processed

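Per the labels, RNA came from pulverised frozen tissue by TRIzol and RNeasy Micro extraction, and TruSeq stranded mRNA libraries were read in pairs on a NovaSeq6000. The authors used FastQC and Trim Galore before alignment to GRCm39 by HISAT2, with a mismatch penalty relaxed for strains other than C57BL/6J, and HTSeq for counting, per the labels. For versions, annotation release and the strand option, the sources used here give no value. The deposited estimated counts divide multiply aligned reads fractionally, and 74.4% of non-zero values were whole (tolerance 1e-06). The authors also deposited TPM. In liver it was the rounded count times a factor of the gene and a factor of the library (12027 genes, tolerance 0.1%). No 2 libraries held identical counts. Of 56980 gene identifiers, 56236 had a name in GENCODE M39.

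Rounded counts went through edgeR 4.0.16 under R 4.3.3, tissue by tissue (TMM, filterByExpr with a minimum count of 10 and total of 15 over the 16 strain and diet groups, robust quasi-likelihood, strain plus diet, or the 16 groups for the interaction). P-values were adjusted over all genes tested, at a threshold of 0.05, and the procedure was tested on simulated data. The mice of a group are separate animals. Likeness was computed for genes averaging 5 CPM or more. Tissues were compared on log2 CPM (pseudocount 0.1) by permutation (100000 resamples), with the mouse as a block as an alternative. Same-numbered libraries come from 1 mouse, and their deviations correlated between tissues with r from -0.132 to 0.799, highest for brown with visceral fat (0.740 for Cyp3a13, 0.799 for Nr1i2). Other settings tried were DESeq2 1.42.0, limma 3.58.1 on log2 of TPM plus 1 or 0.1, RLE size factors, no filter, summed rows, and each library left out. The older quasi-likelihood method, and leaving out libraries over 1% of liver Alb, were added after the data were seen. Counting error only is covered by the depth given, since reads carried no molecular identifiers. Coding sequences were aligned with Biopython 1.88. Python 3.11.15 and matplotlib 3.10.9 drew the figures.

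The genes and lists were chosen with earlier results of these data known. Named genes were the 9 members and further Cyp3a rows, up to 4 genes per list with the smallest adjusted p over strains or in diet contrasts, the 5 most and 5 least like Cyp3a11 and Nr1i2, and tissue markers. Cyp2b10, Rxra, Hnf4a, Nr1i3 and Por were named for their roles in the pathway, after their values were seen.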

Additional observations from a re-analysis of the deposited data

Results flagged for a closer look

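In each strain the liver levels of a member form a group of 8, and the highest or lowest liver was set against the spread of the group by Dixon's ratio at its 95% critical value. Of 36 groups, 9 had a liver that stood apart, and the groups overlap in their mice. Chance gives about 1 in 20 for normally distributed values. These were untransformed TPM, several at a few counts, so the 9 cannot be set against that rate. All 9 were the highest of their group. Cyp3a41a in DBA/2J stood at 8.95 TPM in mouse 45, on the vegan diet, with the next at 0.720 TPM. Cyp3a41b in DBA/2J stood at 4.27 TPM in mouse 42, on the vegetarian diet, with the next at 1.22 TPM. In both mice the other gene of this near-identical pair was the second highest of the strain. Cyp3a41b in C57BL/6J stood at 0.664 TPM in mouse 13, on the vegan diet, with the next at 0.232 TPM.

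SJL mouse 64, on the vegan diet, stood apart in 2 genes, at 0.716 TPM of Cyp3a41a (next 0.361) and 2.76 TPM of Cyp3a16 (next 1.21). C57BL/6J mouse 12, on the vegetarian diet, did so too, at 1.22 TPM of Cyp3a16 (next 0.609) and 87.1 TPM of Nr1i2 (next 61.5). Cyp3a13 stood at 53.0 TPM in SJL mouse 57, on the vegetarian diet (next 25.2), the mouse whose visceral fat held the highest ratio of Cyp3a13 to Alb among the 26 muscle and fat libraries over 10% of liver Alb. Cyp3a13 stood at 37.5 TPM in DBA/2J mouse 39, on the Mediterranean diet (next 27.0).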

How the results depend on the processing

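The count of 8 members called over liver strains was 6 to 8 under other scaling, filter, tool or model settings and 7 to 9 with 1 liver left out. It was 2 with all Cyp3a rows summed, where the family and Nr1i2 are the only features. The 16-group model lost Cyp3a41a and Cyp3a41b, and edgeR without the filter lost Cyp3a11 (adjusted p = 0.0637). With limma, Cyp3a16, Cyp3a41a and Cyp3a41b were not tested. Mediterranean, vegetarian and American contrasts gave 0 members under every setting, and the interaction 0 to 1 with a liver left out, the 1 without DBA/2J mouse 48. Cyp3a11 vegan minus American ran from 0.877 to 1.06 with a liver left out. The strain count of 2 in other tissues was 0 with limma on TPM, 0 with Alb as a covariate, 1 without libraries over 10% of liver Alb (another call, Cyp3a59 in brown fat, adjusted p = 0.029) and 0 without those over 1%, a setting that could be fitted in brown and subcutaneous fat alone. It ran from 1 to 6 with a library left out, 1 without subcutaneous DBA/2J mouse 34 and 6 without subcutaneous SJL mouse 64, and DESeq2 gave 3 other calls and neither of the 2. The causes were not tested.

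SJL minus DBA/2J in Cyp3a41a (log2 -1.76) ran from -2.07 to 0.499 with a liver left out, turning sign without DBA/2J mouse 45 (adjusted p = 0.371), and missed the threshold by DESeq2 (-1.21), the older quasi-likelihood method (-1.41) and the 16-group model (-0.52), where none of the contrasts named for Cyp3a41a and Cyp3a41b passed. All contrasts of Cyp3a13, Cyp3a25, Cyp3a44 and Cyp3a59 named as passing, and those of Nr1i2 in SJL, did so with each liver left out. The tissue count of 8 was 9 with the mouse as a replicate block, which changed 1 call, 7 to 9 with a mouse left out, 7 with a pseudocount of 1 CPM (Cyp3a13 subcutaneous minus brown fat lost), 7 without libraries over 10% of liver Alb (Cyp3a13 visceral minus subcutaneous fat lost, 0.92, adjusted p = 0.0641) and 6 without those over 1%. Without libraries over 1% of liver Alb, 4 tissue differences turned sign: Cyp3a13 subcutaneous fat minus muscle (0.0795), visceral fat minus muscle (-0.14), visceral minus subcutaneous fat (-0.22) and Nr1i2 visceral fat minus muscle (-0.17). Cyp3a11 with Nr1i2 (r -0.18) ran from -0.231 to -0.0999 with a liver left out and turned to 0.529 among deviations from strain and diet means. Depth limits the low members, with under 10 counts of Cyp3a41a in most livers.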
